A study of Mus musculus with 20 samples.

Results

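The cytosolic ribosomal protein genes were examined across 4 ages of the mouse corneal epithelium. Members were found by symbol alone: Rpl or Rps followed by a number, with the usual paralogue letters, the acidic stalk genes Rplp0, Rplp1 and Rplp2, and Rpsa. The rule used no measured value. It found 85 of the 24552 genes in the table, of which 52 had symbols of the large (60S) subunit and 33 of the small (40S) subunit.

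Corneal epithelium was scraped from both eyes of naïve, female, wild-type C57BL/6J mice, 1 animal per library. The young group was 2 to 3 months old, the 12-month group 12 to 13 months, the 18-month group 18 to 19 months and the 24-month group 24 to 25 months, with 5 libraries per group and no treatment. RNA was reverse transcribed from an oligo-dT primer, so that reads came from near the 3′ end of transcripts and about 1 read was expected per transcript sequenced. Libraries held 6699383 to 10762360 reads on genes (median 8731333).

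A ribosome is made of ribosomal RNA and a set of proteins that are needed in equal number, one copy of nearly every protein per ribosome. The large subunit joins amino acids and the small subunit reads the messenger RNA. The P-stalk, built on Rplp0 with Rplp1 and Rplp2, recruits the elongation factors. Most ribosomal protein messenger RNAs begin with a C followed by a run of pyrimidines, the 5′ terminal oligopyrimidine motif, through which mTORC1 controls their translation. Ribosomal protein messages are abundant in epithelia that renew themselves, as that of the cornea does, and their translation can change with no change in their level. A fault in single members is known from Diamond-Blackfan anaemia.

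RefSeq start sites on GRCm38.p6 were at hand for 63 of the 85 members. A C followed by at least 4 pyrimidines began within 5 bases of the annotated start, on the gene's own strand, in 29 of these 63 (46.0%), against 5718 of all 27025 genes with a start-site entry (21.2%). The start sites below are those of members that the results or the spread between replicates turned on, and of 2 members without such a run. Each shows 15 bases before the annotated start and 15 from it on, 5′ to 3′, with capitals from the nearest C that met this rule to the end of its pyrimidine run. Pyrimidines directly before that C are left in lower case.
Rpl14 (chr9:120571502-120571531, + strand): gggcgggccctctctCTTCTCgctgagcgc
Rpl13a (chr7:45128731-45128760, - strand): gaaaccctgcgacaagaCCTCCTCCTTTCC
Rpl35 (chr2:39005117-39005146, - strand): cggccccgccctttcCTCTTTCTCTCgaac
Rpl7a (chr2:26910792-26910821, + strand): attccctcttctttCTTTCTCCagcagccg
Rps6 (chr4:86857353-86857382, - strand): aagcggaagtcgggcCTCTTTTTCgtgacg
Rpl22l1 (chr3:28805493-28805522, + strand): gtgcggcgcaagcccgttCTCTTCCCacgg
Rps25 (chr9:44407699-44407728, + strand): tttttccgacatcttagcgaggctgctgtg
Rplp0 (chr5:115559452-115559481, + strand): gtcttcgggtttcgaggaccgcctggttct
The matched C was the annotated start itself in Rpl14, Rpl35 and Rps6, and lay 2 bases after it in Rpl13a. Other pyrimidines stood directly before the matched C in Rpl14, Rpl35, Rpl7a, Rps6 and Rpl22l1, so that the whole pyrimidine stretch began upstream of the capitals there. In Rps25 and Rplp0 these letters were not in the searched window.

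The symbol rule and the annotation did not agree for every member. RefSeq listed 83 members as protein coding and Rps4l as a transcribed pseudogene. Rpl32l came without a gene identifier, so it could not be looked up in RefSeq. The GENCODE transcripts list Rpl32l as a pseudogene that shares sequence with Rpl32. Fau, which encodes a ribosomal protein fused to a ubiquitin-like protein, lay outside the rule. Its mean normalized counts in the 4 ages lay between 1862 and 2244, and it was not called in any comparison below.

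Across the series, Rn45s, the 45S ribosomal RNA precursor, had the most reads in all 20 libraries, at 10.14 to 23.39% of reads on genes. The highest share was that of young replicate 1, which also had the lowest share of reads on the members. All 10 corneal epithelial markers were detected, with summed normalized counts of 454036 to 576705 in the young group and 472006 to 532700 in the aged groups. Summed markers of lacrimal and other glands reached 440 to 10195 in the young libraries and 0 to 128 in the aged libraries, and those of stromal keratocytes 3278 to 5937 and 2045 to 3829. Conjunctival markers summed to 28490 to 49827 in the young, 24425 to 40021 in the 12-month, 27600 to 37331 in the 18-month and 24804 to 29974 in the 24-month libraries. For all aged against young libraries, 5 of 6 tested gland markers, 5 of 9 keratocyte markers and 2 of 6 conjunctival markers were called lower and 1 keratocyte marker higher, while 0 of the 10 corneal epithelial markers were called. The part of these markers in the values below was not tested. In bulk tissue, fewer cells of a type and less RNA per cell cannot be told apart.

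Ribosomal protein messages were abundant at every age. The 85 members took 3.41% ± 0.414 of reads in the young libraries (SD, n = 5). They took 3.93% ± 0.321 at 12 months, 3.56% ± 0.259 in the 18-month group and 3.63% ± 0.268 in the 24-month group. The lowest single share was 2.83% (exact 95% interval 2.82 to 2.84%) in young replicate 1, and the highest was 4.47% (4.46 to 4.49%) in 12-month replicate 1. These intervals cover counting error only and are narrow beside the spread between animals. Normalized counts, that is reads divided by the library's size factor, averaged 1000 or more for 62 of the 85 members. The median over the 78 members tested was 2875, against 166 over all 11288 genes tested.

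Summed over the 85 members, the normalized count was 286733 ± 20660 in the young group (SD, n = 5) and 332622 ± 15531 at 12 months. For the 18-month group it was 302050 ± 26787, and for the 24-month group 294388 ± 20647. The young libraries ranged from 266107 to 313283 and the 12-month libraries from 320203 to 359584, so that these groups did not overlap, whereas the 18-month range of 267932 to 340645 and the 24-month range of 275702 to 329566 overlapped with both. The ratio of the 12-month mean to the young mean was 1.16 ± 0.0445 (SE). It was 1.05 ± 0.0538 for 18 months and 1.03 ± 0.0462 for 24 months. As a share of all reads the 12-month ratio was 1.15 ± 0.0754, and with Rn45s left out of the total it was 1.14 ± 0.0481. On both of these scales the young and 12-month libraries overlapped. Shares of all reads reached 3.866% in the young group and began at 3.634% at 12 months. Without Rn45s the young shares reached 4.39% and the 12-month shares began at 4.374%. These sums are given as a description and were not tested.

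**Figure D1:**
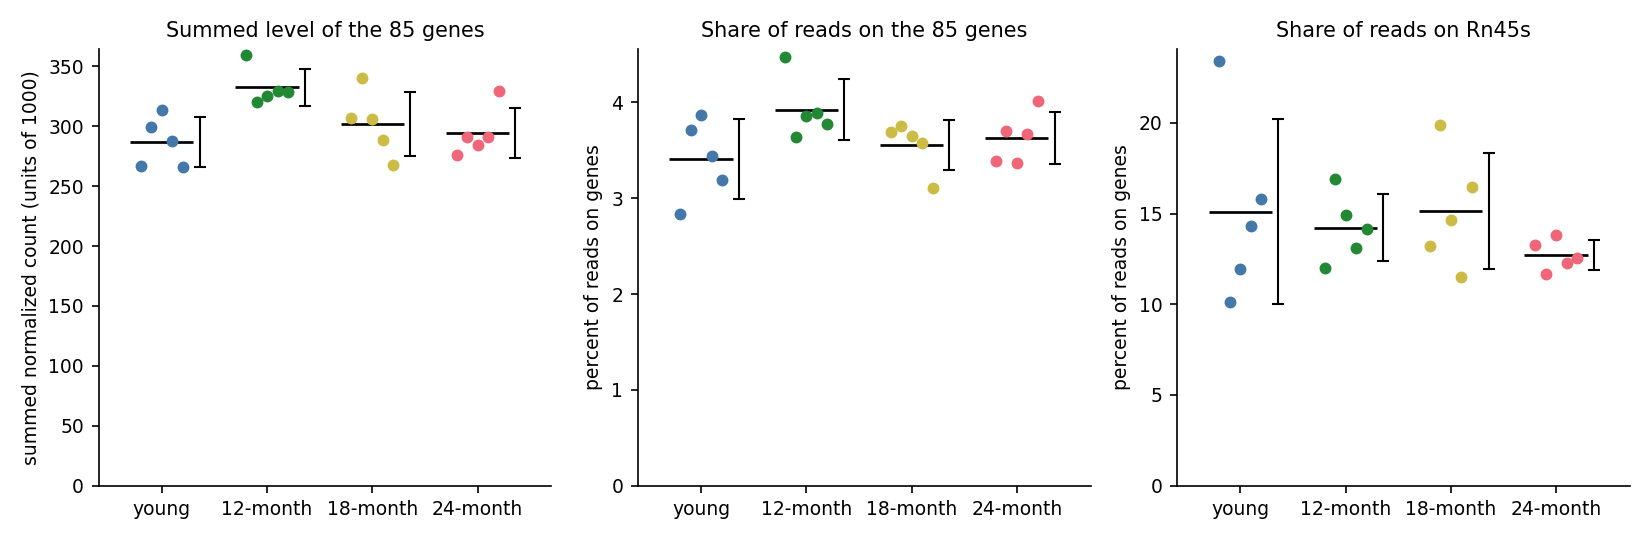
Each point is 1 library (5 per age group). The left panel plots the summed normalized count of the 85 ribosomal protein genes in units of 1000, the middle panel their percent of reads on genes, and the right panel the percent of reads on Rn45s; horizontal lines are group means and bars are ± 1 SD. The 12-month sums lie between 320203 and 359584, above every young library, but in the middle panel the young and 12-month libraries overlap. Young replicate 1 has the highest Rn45s share at 23.39%.

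Both subunits had their highest mean sum at 12 months. The large subunit summed to 148667 ± 7856 in young and 170856 ± 7773 in 12-month libraries (SD, n = 5), and the small subunit to 138066 ± 13425 and 161766 ± 7879. Among the members tested, 36 of 46 of the large subunit and 28 of 32 of the small subunit had a positive log2 fold change from young to 12 months, with medians of 0.15 and 0.18. From 12 to 24 months, the medians were -0.13 and -0.12.

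No member was called between any ages. A gene was called where limma's test on the log2 values, fitted to all 20 libraries, gave an adjusted p of at most 0.05 together with a difference of 1.2-fold or more. Testing covered the 78 members whose normalized counts averaged 10 or more. From young to 12 months 0 of the 78 were called, where 0.532% of all genes tested were called. The same count of 0 stood against 0.673% of all genes for 18 months against young, 0.78% for 24 months against young, 0.195% for 24 against 12 months and 0.00886% for 18 against 12 months. Between 18 and 24 months no gene at all was called. All aged libraries against young (1.01% of genes called) and the F test of any difference among the 4 ages (0.904%) also called 0 members. The voom test on the reads recovered from the deposited values called 0 members in every one of these comparisons.

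Without adjustment for multiple tests, more members were higher than lower at 12 months, and more were lower than higher from 12 to 24 months. From young to 12 months limma gave 18 of the 78 members an unadjusted p under 0.05, all of them higher and 0 lower, where 4.6% and 4.96% of all genes were higher and lower at that level, and voom gave 19. Log2 fold changes were positive for 64 of 78 members, against 48.3% of all genes, and ran from -0.17 to 0.55 with a median of 0.17. The median over all genes tested was -0.01.

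From young to 18 months 0 members had an unadjusted p under 0.05 in either direction by limma (3.34% of all genes were higher and 3.84% lower), and 2 by voom. Of the 78, 59 had positive values (49.8% of all genes) and the median log2 fold change was 0.09. From young to 24 months 2 members were higher and 2 lower at an unadjusted p under 0.05, where 4.93% and 5.04% of all genes were. Here 51 of 78 values were positive (50.7% of all genes), with a median of 0.07. The 3 contrasts with the young group share its 5 libraries.

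From 12 to 24 months 16 members were lower and 1 was higher at an unadjusted p under 0.05, where 7.17% and 7.55% of all genes were. Of the 78, 52 had negative values and the median log2 fold change was -0.13, against 0.02 over all genes. From 12 to 18 months 10 members were lower and 0 higher (3.45% and 3.99% of all genes), with a median of -0.08. From 18 to 24 months 0 members had an unadjusted p under 0.05 by limma and 1 by voom, where 2.74% of all genes were higher and 2.57% lower, and the median of -0.03 turned positive, to 0.01 with quantile normalization and 0.03 with library total scaling. All aged libraries against young gave 8 members higher and 0 lower (3.98% and 3.92% of all genes), with a median of 0.11 and 63 of 78 values positive (48.7% of all genes). The contrasts of 12 months with young, 18 and 24 months share the 5 12-month libraries.

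**Figure D2:**
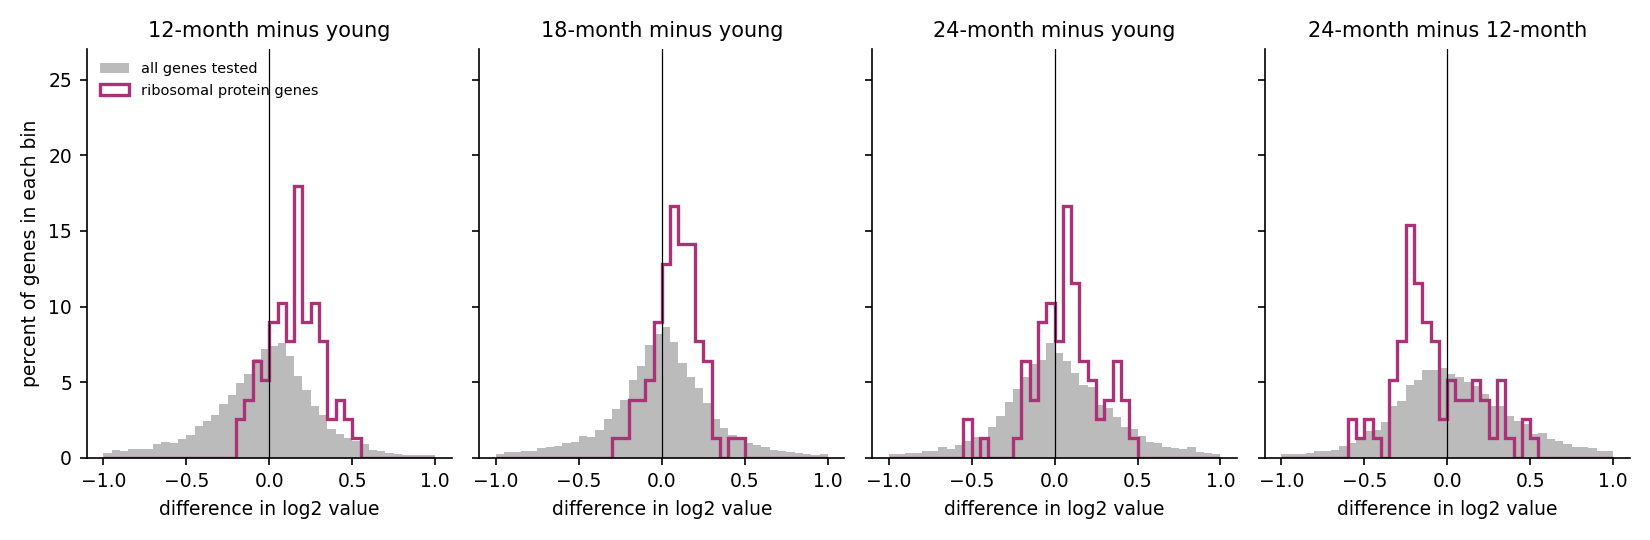
Each panel is a histogram of the difference in log2 value between 2 age groups, in bins of 0.05, with the vertical axis in percent of genes; grey bars are all 11288 genes tested, and the line is the 78 ribosomal protein genes tested. The line lies to the right of 0 for 12 months against young (median 0.17) and to the left for 24 against 12 months (median -0.13).

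Young replicate 1 weighed on these medians. Without it, the members' medians against young were 0.11, 0.01 and 0.02 for the 12-, 18- and 24-month groups, and 53, 41 and 41 of the 78 values were positive (47.6%, 48.1% and 49.8% of all genes). In that fit 3 members, Rpl13, Rplp1 and Rps14, were called higher at 12 months than in the remaining young libraries, where 0.85% of all genes were called in either direction. Other single libraries also moved the medians. Without 12-month replicate 1 the 12-month median was 0.113, and without 24-month replicate 5 the 24-month median was 0.023. Without young replicate 3 the 3 medians rose to 0.202, 0.145 and 0.135.

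When the mean log2 value of each age was compared for each member, 47 of the 78 members were highest at 12 months and 21 at 24 months. Only 3 were highest in the young group and 7 at 18 months. Over all genes tested, 27.2% were highest at 12 months, 29.1% at 24 months, 23.8% in the young group and 19.9% at 18 months.

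Among large subunit members, Rpl13a came closest to a call from young to 12 months. Rpl13a is a large subunit protein that is also known from the interferon-gamma-activated inhibitor of translation complex. Its normalized counts in the 5 young libraries were 6327, 5845, 6510, 6636 and 7191. In the 12-month libraries they were 7960, 10044, 8613, 8479 and 8267. The 12-month libraries were all above the young ones. The log2 fold change was 0.41 ± 0.102 (SE, limma adjusted p = 0.0562). At 18 months the group averaged 7527 ± 1140 and at 24 months 6945 ± 459 (SD, n = 5). Over the alternative settings its limma adjusted p for 12 months against young ran from 0.0314 to 0.207.

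Rpl14 came closest to a call from 12 to 24 months. Its 12-month normalized counts were 2781, 2440, 2716, 3185 and 3178, and its 24-month counts were 2033, 1933, 1791, 1819 and 1880. Every 24-month library was below every 12-month library, and all 5 lay within a narrow band. The log2 fold change was -0.59 ± 0.134 (SE) with a limma adjusted p of 0.0501, just short of the threshold, and alternative settings gave 0.0142 to 0.146. The young libraries held 3572, 2654, 2016, 2243 and 2378, and lay above and within the 24-month range. Against young, the 24-month log2 fold change was -0.42 ± 0.134 (limma adjusted p = 0.198).

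Rpl14 shares part of its sequence with a processed copy that the table lists on its own, Rpl14-ps1. Of the 326 windows of 75 bases, the read length, in the last 400 bases of annotated Rpl14 transcripts, 12 (3.7%) also occurred in Rpl14-ps1. Rpl14-ps1 itself averaged 1421 ± 510 in 12-month and 925 ± 161 in 24-month libraries (SD, n = 5), which gave -0.56 on the log2 scale (limma adjusted p = 0.244). Reads of the gene and its copy could not be separated further here.

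Rpl35, a large subunit protein near the exit of the peptide tunnel, had the largest positive log2 fold change of all members tested at 12 months. Young libraries held 4698, 2571, 7205, 5069 and 5805 normalized counts, and 12-month libraries 7847, 7829, 7379, 5297 and 7117. The groups overlapped, because young replicate 3 was above 12-month replicates 4 and 5. The log2 fold change was 0.55 ± 0.175 (limma adjusted p = 0.227), and from 12 to 24 months it was -0.52 ± 0.175 (limma adjusted p = 0.175).

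Rpl37, among the 5 most abundant members, averaged 10122 ± 554 in the young group, 12694 ± 989 at 12 months and 10560 ± 794 at 24 months (SD, n = 5). Its 12-month libraries, at 11817 to 14020, did not overlap with the young libraries, at 9277 to 10769, nor with the 24-month libraries, at 9449 to 11268. The limma adjusted p was 0.166 for 12 months against young and 0.214 for 24 against 12 months. Rpl11, which with Rpl5 and 5S ribosomal RNA binds Mdm2 when ribosome assembly is disturbed, averaged 5097 ± 565 in the young group, 6445 ± 578 at 12 months and 6077 ± 455 at 24 months. Its log2 fold change was 0.34 ± 0.0984 at 12 months (limma adjusted p = 0.14) and 0.26 ± 0.0984 at 24 months (limma adjusted p = 0.335).

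Counted over all members tested, 5 were higher in every 12-month library than in every young library (Rpl11, Rpl13a, Rpl37, Rps12 and Rps29), where 0.921% of all genes were, and 0 were lower in this way (1.06%). From 12 to 24 months 10 members were lower with no overlap (among them Rpl13, Rpl13a, Rpl14, Rpl37, Rplp1, Rps20 and Rps4l), where 1.75% of all genes were, and 0 were higher (1.5%). From young to 24 months 0 members were higher and 1, Rps4l, was lower with no overlap (1.26% and 1.55% of all genes). From 12 to 18 months 1 member, Rps14, was lower with no overlap (0.611% of all genes) and 0 were higher (0.514%). From young to 18 months and from 18 to 24 months 0 members were separated in either direction, where 1.04% and 0.558% of all genes were higher and 1.01% and 0.638% lower.

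In the P-stalk, Rplp1 had the largest values at 12 months. Its normalized counts were 14135, 7121, 11362, 8279 and 10734 in the young libraries and 13458, 12609, 12360, 12315 and 16808 at 12 months. Young replicate 1 lay inside the 12-month range, and the other young libraries lay below it. This was a log2 fold change of 0.42 ± 0.14 (limma adjusted p = 0.262). Rplp2 averaged 4815 ± 580 in the young group and 5692 ± 847 at 12 months, and Rplp0 7209 ± 540 and 8180 ± 1070 (SD, n = 5), with limma adjusted p of 0.518 and 0.703.

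Among small subunit members, Rps14 had the largest fold change from young to 12 months. Its normalized counts were 9554, 5957, 9658, 6597 and 6029 in the young libraries and 11519, 8735, 9032, 9832 and 12646 at 12 months. Young replicates 1 and 3 fell inside the 12-month range. Rps14 gave a log2 fold change of 0.47 ± 0.138 (limma adjusted p = 0.144). Rps21 gave 0.47 ± 0.158 (limma adjusted p = 0.269), and its mean of 9445 ± 2430 in the young group rested in part on 5289 in young replicate 1. Rps29, the most abundant member with a mean of 13206 over all libraries, averaged 11797 ± 1900 in the young group, 15082 ± 1570 at 12 months and 12089 ± 1830 at 24 months (SD, n = 5). Its log2 fold change at 12 months was 0.37 ± 0.128 (limma adjusted p = 0.292).

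Rps20 had the lowest adjusted p after Rpl14 from 12 to 24 months. Its normalized counts were 10251, 10704, 9930, 12874 and 13368 at 12 months and 7805, 8143, 8494, 7803 and 8995 at 24 months, with no overlap. From 12 to 24 months it gave -0.46 ± 0.119 on the log2 scale (limma adjusted p = 0.0936).

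Rps4l, listed as a transcribed pseudogene related to Rps4x, had the member value closest to a call from young to 24 months. The young libraries held 387, 388, 449, 401 and 413 normalized counts and the 24-month libraries 279, 260, 331, 260 and 273, with no overlap. The log2 fold change was -0.54 ± 0.147 (limma adjusted p = 0.0946), with 0.0603 to 0.232 over the alternative settings. Against 12 months it was -0.56 ± 0.147 (limma adjusted p = 0.1). Rps4x itself averaged 1947 ± 538 in young and 2250 ± 344 in 24-month libraries (SD, n = 5, limma adjusted p = 0.687). Rps4l lies on chromosome 6 and overlaps Tmtc1 in the annotation, so reads of the overlapping gene could be counted in it or be lost to it.

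Rps4l and Rpl32l had the largest negative values from young to 24 months. Rpl32l, the least abundant member tested at a mean of 149, gave a log2 fold change of -0.54 ± 0.275 (limma adjusted p = 0.526). The largest positive values from young to 24 months were those of Rps23 (0.48), Rps16 (0.44) and Rpl7a (0.41). From 12 to 24 months they were those of Rpl7a (0.54), Rpl35a (0.47) and Rpl5 (0.47). The largest negative values from young to 12 months were those of Rps3a1 (-0.17), Rpl5 (-0.15) and Rps6 (-0.13). None of these members was called. From young to 18 months the largest positive values were those of Rps16 (0.48), Rps23 (0.42) and Rps24 (0.30), and the largest negative ones those of Rps4l (-0.27), Rpl8 (-0.20) and Rpl14 (-0.17), with limma adjusted p between 0.739 and 0.915.

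The paralogues of the rule differed widely in level. Rpl22 averaged 5795 ± 469 in the young group, 7000 ± 574 at 12 months and 6006 ± 431 at 24 months (SD, n = 5). Rpl22l1, a paralogue that can stand in for Rpl22, held 528, 1048, 855, 1020 and 822 normalized counts in the young libraries and 959, 1044, 1119, 1167 and 1220 at 24 months. The groups overlapped, and young replicate 1 was the lowest. The log2 fold change of Rpl22l1 was 0.40 ± 0.164 (limma adjusted p = 0.382). For Rpl22 over the same ages it was 0.05 ± 0.0909 (limma adjusted p = 0.907). The difference between the paralogues was not tested.

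Rps27l, a p53 target in its own right, averaged 1272 ± 181 in the young group and 1179 ± 205 at 24 months, while its source gene Rps27 had 15 reads in all 20 libraries together. Rpl7l1 averaged 368 ± 25.7 and 404 ± 27.1 beside 5151 ± 1030 and 5020 ± 188 for Rpl7. Rpl39l, a testis-enriched form, had 136 reads in all and Rpl39 46013. Rpl3l, a muscle form, had 1 read in all against 38133 for Rpl3, and Rpl10l, a testis form, had 0 against 8831 for Rpl10. Rpl3l, Rpl10l, Rpl39l and Rps27 were not tested. Of the paralogues and source genes tested, 0 were called in any comparison, where 0 to 1.01% of all genes were.

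**Figure D3:**
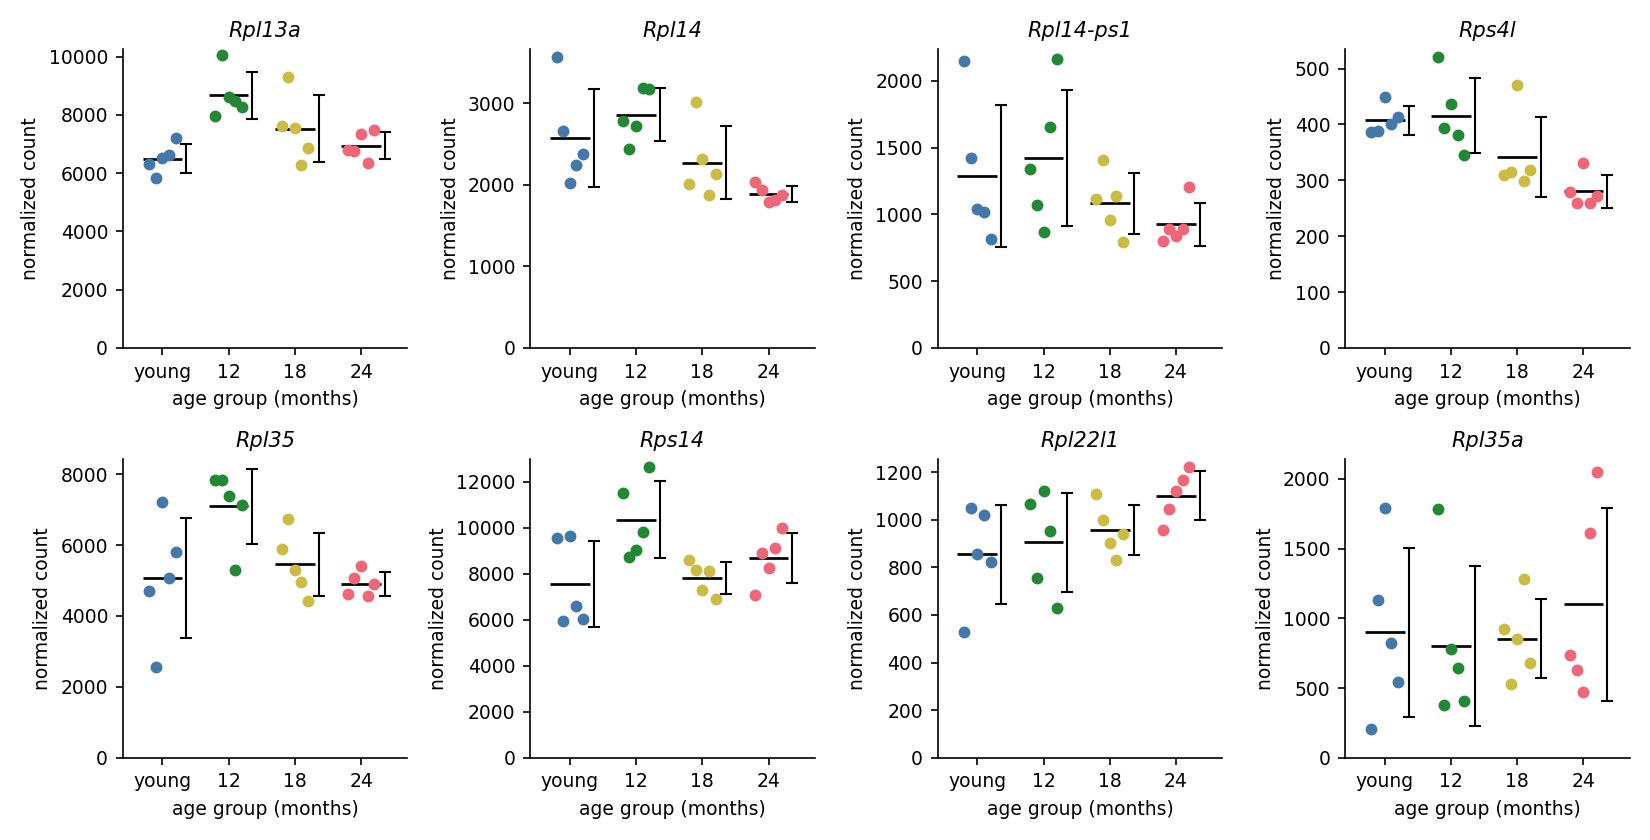
Normalized counts of 7 ribosomal protein genes and of Rpl14-ps1 by age group; each point is 1 library, horizontal lines are group means and bars are ± 1 SD (n = 5). The 24-month libraries of Rpl14 (1791 to 2033) lie below all 12-month libraries, and Rpl35a spreads from 208 to 2050 over the 20 libraries.

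The 7 members that did not reach the mean of 10 were Rpl3l, Rpl10l, Rpl26, Rpl30, Rpl34, Rpl39l and Rps27. Of these, Rpl26, Rpl30, Rpl34 and Rps27 encode core ribosomal proteins, and a count near 0 is not read here as absence of the message. Rpl26 and Rpl10l had 0 reads among 171358016 reads on genes, which allows up to 3 reads of that total. Rpl34 had 7 reads, Rps27 15 and Rpl30 73. Of the windows of 75 bases at their transcript ends, 45.9% for Rpl26, 56.4% for Rpl30, 18.5% for Rpl34 and 46.6% for Rps27 also occurred in other annotated genes, 5, 11, 8 and 4 genes in number. How the counting treated reads that match several places is not given in the sources used here, and the part of such copies in these counts was not tested. Rpl37 and Rps16, by contrast, had 0 shared windows.

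Members differed widely in their spread between replicates. The SD of log2 values within ages ran from 0.107 for Rpl22 to 0.9 for Rpl35a. Its median over the 78 members was 0.237, against 0.387 over all genes tested and 0.196 over the 1280 genes with a mean log2 value of 10 or more. It was under 0.25 for 44 members and over 0.4 for 13, among them Rpl5, Rpl7a, Rpl15, Rpl35a, Rpl39, Rps2, Rps6, Rps16 and Rps23. These 13 were singled out after their values were seen.

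Several of the widely spread members were high and low in the same libraries. Rpl35a had normalized counts of 208, 1133, 1791, 821 and 541 in the young libraries and 1781, 380, 781, 647 and 410 at 12 months. At 18 months it had 926, 531, 849, 1284 and 681, and at 24 months 740, 633, 469, 1612 and 2050. Its high libraries were young replicate 3, 12-month replicate 1, 18-month replicate 4 and 24-month replicates 4 and 5. Rpl7a had 372, 1965, 2360, 1513 and 1067 in the young libraries and 2386, 706, 1403, 1483 and 510 at 12 months. At 18 months it had 1329, 820, 1790, 2078 and 980, and at 24 months 1362, 1349, 1039, 2422 and 2502. The highest library of Rpl7a was that of Rpl35a in all 4 ages.

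After the mean of each age was taken out, the mean pairwise Pearson r over the 20 libraries was 0.581 among these 13 members and 0.185 among the other 65. Without young replicate 1 it was 0.559 among the 13. Over all 78 members it was 0.204, over all genes tested 0 and over the 1280 genes with a mean log2 value of 10 or more 0.026. These values are descriptive, and the points share libraries and size factors.

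**Figure D4:**
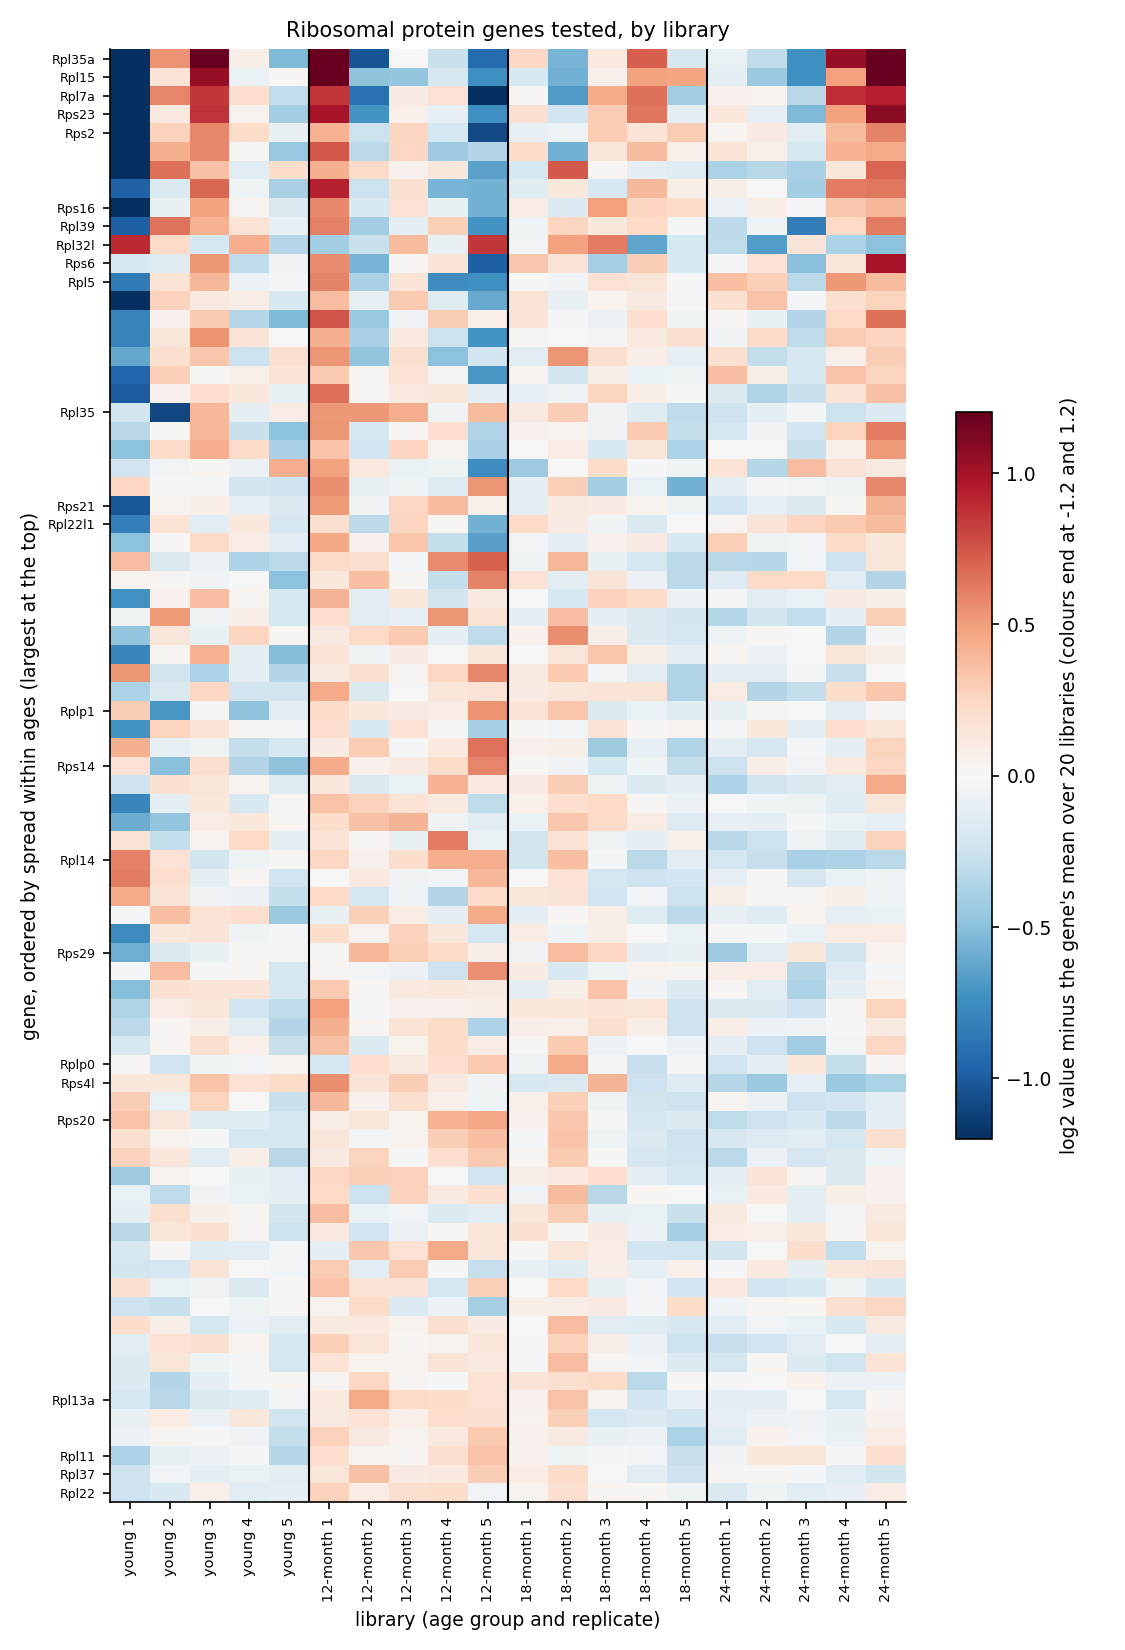
Log2 value minus the gene's mean over the 20 libraries for the 78 ribosomal protein genes tested (rows, ordered by SD within ages, largest at the top) in each library (columns, in 4 age blocks); red is above and blue below the mean, and some of the rows are labelled. Several of the top rows, with an SD of over 0.4, share high and low libraries within each age, but Rpl32l does not. The rows at the bottom, such as Rpl22 (SD 0.107), differ little between libraries.

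The Rn45s share was set beside this pattern as a description. The libraries with the highest Rn45s share of their age were young replicate 1 (23.39%), 12-month replicate 2 (16.93%), 18-month replicate 2 (19.86%) and 24-month replicate 3 (13.84%). Rpl35a was the lowest of its age in all 4 of these libraries. Of the 13 widely spread members, 6 were lowest in at least 3 of the 4, and of all 78 members 14 were. Over all genes tested this held for 7.43%. The 13 were chosen for their spread and their values were correlated, so they do not count as separate observations. The part of the ribosomal RNA share in the members' values was not tested.

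The widely spread members had other medians than the rest. Of the 13, 5 had a positive value from young to 12 months, with a median of -0.03, against 59 of the other 65, with a median of 0.18. From 12 to 24 months the medians were 0.31 for the 13 and -0.19 for the other 65. From young to 24 months they were 0.34 and 0.06. Of the 13 members, 10 were higher at 24 months than in the young group and 0 were called. The difference between the 2 sets was not tested.

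Shared sequence varied between members. Transcripts were matched by gene identifier, which left out Rpl32l. Of the 84 members with a matched transcript, 72 had at least 1 window of 75 bases in common with another gene, and 13 overlapped another gene of the table. Rpl5 shared 100% of its windows, Rpl10 88.2%, Rps6 87.1% and Rpl7a 84.4%, the last with 35 pseudogenes. Across the 77 tested members with a matched transcript, the Spearman correlation of the shared percentage with the SD within ages was 0.303. The 9 members with no shared window had a median SD of 0.191 and the 29 with more than 50% shared had one of 0.284. All 9 members with no shared window were higher at 12 months than in the young group, and their median was 0.23 on the log2 scale, while 20 of the 29 were, with a median of 0.12. From 12 to 24 months the medians were -0.22 and 0.04. Levels of members with many copies are uncertain.

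**Figure D5:**
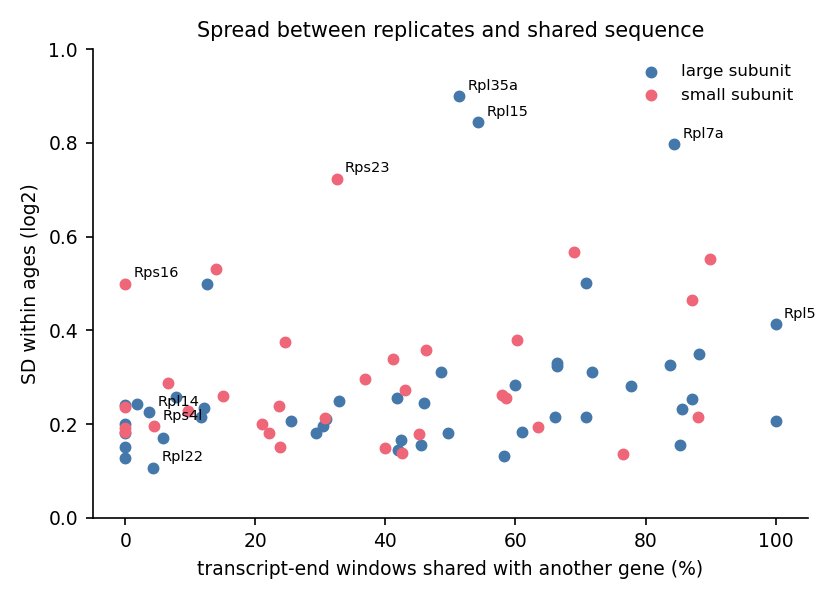
Each point is 1 of the 77 tested members with a matched transcript, coloured by subunit. The horizontal axis is the percent of 75-base windows at the transcript end that also occur in another gene, and the vertical axis the SD of log2 values within ages; Rpl35a has the highest SD (0.9) at 51.3% shared, and Rps16 reaches 0.5 with 0% shared.

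Members were also divided by the pyrimidine run at the start site. The 27 tested members with such a run had median log2 fold changes of 0.17, 0.14 and 0.11 at 12, 18 and 24 months against young. The 30 without one, of those with a start-site entry, had 0.20, 0.09 and 0.08. No test was made of this difference.

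Genes that act with the ribosomal proteins were read from 4 lists. Among 22 other translation genes known to carry a terminal oligopyrimidine start, such as elongation factors, 0 of 22 tested were called in any comparison by limma. The 12-month median against young was 0.13, with 2 higher and 0 lower at an unadjusted p under 0.05 (4.6% and 4.96% of all genes). The median from 12 to 24 months was -0.17, with 1 higher and 2 lower (7.55% and 7.17% of all genes). The largest values at 24 months were those of Hnrnpa1, an RNA-binding splicing factor, at 0.69 ± 0.49 (adjusted p = 0.682) and Btf3, a subunit of the nascent polypeptide-associated complex, at -0.57 ± 0.456 (adjusted p = 0.73). Both had low normalized counts. Hnrnpa1 averaged 54.8 ± 26 in young and 94.1 ± 53.8 in 24-month libraries, and Btf3 66.3 ± 36.6 and 47.3 ± 28.4 (SD).

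Of 46 ribosome biogenesis factors, all tested, 0 were called, and the medians against young were 0.02, -0.06 and -0.09 for the 12-, 18- and 24-month groups. At 24 months 1 was higher and 8 were lower at an unadjusted p under 0.05 (4.93% and 5.04% of all genes). Rrp12, a factor of subunit maturation and export, averaged 74.3 ± 28.3 in young and 45.6 ± 14.5 in 24-month libraries (SD, n = 5). Its log2 fold change was -0.66 ± 0.32 (limma adjusted p = 0.496). Taf1b, a subunit of the RNA polymerase I selectivity factor, averaged 97.7 ± 29.9 and 149 ± 22.2, at 0.65 ± 0.304 (limma adjusted p = 0.468).

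Of 23 regulators of ribosomal protein synthesis, 22 were tested and 0 were called. Their median log2 fold change was -0.15 from young to 12 months, where 9 of 22 were positive (48.3% of all genes). From 12 to 24 months it was 0.29, where 17 were positive (52.2% of all genes). At an unadjusted p under 0.05, 1 was higher and 2 lower in the first contrast (4.6% and 4.96% of all genes). In the second 0 were higher and 0 lower (7.55% and 7.17%). The list mixed inhibitors, such as Eif4ebp2, with genes that promote this synthesis, so the sign of its median gives no direction of regulation. The members' medians over these contrasts were 0.17 and -0.13, and the difference between the list and the members was not tested. Against young, the 24-month median was 0.12. Eif4ebp2, an inhibitor of cap-dependent translation that mTORC1 inactivates, averaged 1669 ± 879 in young and 2531 ± 441 in 24-month libraries (SD, n = 5), which gave 0.83 ± 0.367 (limma adjusted p = 0.438). Rps6kb2, a kinase of the ribosomal protein encoded by Rps6, gave 0.94 ± 0.818 (limma adjusted p = 0.75). Its counts were low, at 17.6 ± 13.6 in young and 32.4 ± 17.2 in 24-month libraries (SD, n = 5).

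The mitochondrial ribosomal proteins, which build the separate ribosome of mitochondria, served as another family. Of 78 symbols 74 were tested and 0 were called. Their medians were 0.04 at 12 months and 0.04 at 24 months against young and -0.02 from 12 to 24 months. From young to 12 months 45 of the 74 had positive values (48.3% of all genes). At an unadjusted p under 0.05, 3 were higher and 2 lower (4.6% and 4.96% of all genes). Mrpl38 gave 0.71 ± 0.341 (limma adjusted p = 0.493) and Mrps31 -0.72 ± 0.303 (limma adjusted p = 0.409) from young to 24 months.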

How the data were processed

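RNA-seq values of 20 libraries were used, 5 per age group, grouped by the age in the labels. Per the study's methods, the authors trimmed reads with cutadapt, assessed them with FastQC, aligned them with STAR to GRCm38 and used HTSeq to count them per gene, with relative log expression normalization in DESeq2. Versions are not given in the sources used here. The deposited library columns hold log2 of the normalized count plus 1. A further deposited column, the base mean (recorded here as a signal, never negative), equalled the mean normalized count for 98.4% of genes and was read only as that check. Deposited columns of the authors' own comparisons (p-values, adjusted p-values and fold changes) were not used.

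Values were turned back into normalized counts and into reads. In every library 100% of values came out as whole reads within 0.02, so depth is known. PCR reads without molecular identifiers are not independent molecules, so intervals cover counting error only. The filter on low genes was a mean of 10 normalized counts or more (11288 of 24552 passed). These were tested with limma 3.58.1 (trend) in R 4.3.3 on the log2 values, with all 4 ages in 1 fit and Benjamini-Hochberg adjustment. Fold changes are on the log2(value + 1) scale, which understates those of low genes. Each library came from a separate mouse. The voom test on recovered reads called 38, 61 and 75 genes at 12, 18 and 24 months against young, where limma called 60, 76 and 88. The test was checked on simulated data. Exact permutation tests of single named members had been planned and are not given, because many of those members were named for the size of their change.

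Members, lists and tests were chosen with earlier results of these data known. Named members were the 3 largest positive and negative changes in the 3 contrasts with young and in 24 against 12 months, the 5 highest and 5 lowest tested, the paralogues with their source genes, the members not tested and the 3 smallest F-test p-values. For each list, members called or else the 2 with the largest change at 24 months were named. Other members were named in counts and after their values were seen. Start sites came from RefSeq on GRCm38.p6 (63 of 85 matched by gene) and transcripts from GENCODE M21. Markers of immune cells, conjunctiva, nerve, vessels and proliferating cells were also summed: their totals per library were 988 to 2182, 24425 to 49827, 349 to 686, 42.6 to 167 and 3295 to 7508. Protein sequences were not analysed here. Some members of the counts are not reported here by name.

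Alternatives were 4 planned scalings and 1 added one, voom, no filter, a filter of 50, only the 2 groups compared, a replicate block, no fold threshold and one of 1.5, pseudocounts of 0.1 and 10, and leaving out each library.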

Additional observations from a re-analysis of the deposited data

Results flagged for a closer look

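In groups of 5, a library was singled out where its gap to the nearest other library, as a share of the group's range, exceeded Dixon's 95% critical value. Of 128 groups examined, 11 were, and chance alone gives about 1 in 20. Rpl15 stood at 504 normalized counts in 12-month replicate 1 (others 127 to 186) and at 732 in 24-month replicate 5 (others 128 to 301). Rpl35a stood at 1781 in 12-month replicate 1 (others 380 to 781), the library that also had the highest summed count of the 85 members, 359584 (others 320203 to 329542). Rpl35 stood low at 5297 in 12-month replicate 4 (others 7117 to 7847). Rplp1 stood at 16808 in 12-month replicate 5 (others 12315 to 13458). Rps21 stood low at 5289 in young replicate 1 (others 9562 to 11257). Rps4l stood at 470 in 18-month replicate 3 (others 298 to 319) and at 331 in 24-month replicate 3 (others 260 to 279). Rps6 stood at 381 in young replicate 3 (others 215 to 258). The share of reads on the members stood low at 3.11% in 18-month replicate 5 (others 3.57 to 3.76%).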

How the results depend on the processing

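The number of members called was 0 in all 6 comparisons of ages, in all aged against young and in the F test, and it was 0 under every alternative run for 18 and 24 months against young, for 18 against 12 months, for 24 against 18 months and for all aged against young (the fit of only the 2 groups was run for pairs of ages, not for all aged or the F test). For 12 months against young it was 1 (Rpl13a) with library total scaling and 0 to 3 with 1 library left out: 3 without young replicate 1 (Rpl13, Rplp1 and Rps14) and 1 (Rpl13a) without 12-month replicate 1 or 18-month replicate 2. For 24 against 12 months it was 1 (Rpl14) with size factors computed without the members, with a filter of 50, with only the 2 groups and with a pseudocount of 10, and 0 to 2 with 1 library left out: 2 (Rpl14 and Rps20) without young replicate 1 and 1 (Rpl14) without young replicate 3, 12-month replicate 1 or 18-month replicate 2. For the F test it was 0 to 1 with 1 library left out (Rpl14, without young replicate 1 or 18-month replicate 2). The causes of these shifts were not tested.

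With 1 library left out, median log2 fold changes of the members ran from 0.11 to 0.20 for 12 months, 0.01 to 0.15 for 18 months and 0.02 to 0.14 for 24 months against young, from -0.18 to -0.10 for 24 against 12 months, -0.13 to -0.04 for 18 against 12 months and -0.073 to -0.002 for 24 against 18 months. Over the scalings, voom and the added scaling that leaves out Rn45s (chosen after seeing the data), the 12-month median kept its sign. With quantile normalization it was 0.11, and limma gave 9 members higher at an unadjusted p under 0.05, against 18 in the main fit. For 24 against 12 months the median was -0.06 with quantile normalization and -0.06 with library total scaling, beside -0.01 and 0.08 over all genes. Each gave 8 members lower and 2 higher at that level, against 16 and 1 in the main fit. Ratios of the summed count to young ran from 1.14 to 1.19, 1.02 to 1.08 and 1.00 to 1.05 with 1 library left out.

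Log2 fold changes of named members from young to 24 months turned positive with library total scaling for Rpl23a (0.019, adjusted p = 0.97) and Rpl7 (0.041, adjusted p = 0.949). Leaving out 1 library changed the sign of 11 named members, of which 0 were called: Rpl10 ran from -0.100 to 0.136, Rpl15 from -0.097 to 0.604, Rpl23a from -0.085 to 0.021, Rpl35 from -0.199 to 0.173, Rpl35a from -0.054 to 0.720, Rpl39 from -0.348 to 0.096, Rpl7 from -0.098 to 0.087, Rpl7a from -0.020 to 0.646, Rps29 from -0.069 to 0.115, Rps3a1 from -0.122 to 0.213 and Rps6 from -0.023 to 0.348.

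Replicate numbers did not pair the libraries. Deviations from the group means of same-numbered libraries correlated at -0.303 to 0.159 (median 0.00775 over 30 pairs), and 1 of 20 libraries correlated best with its own number. With the replicate block, 0 members were called in every comparison, the lowest adjusted p being 0.0889 for 12 months against young and 0.0964 for 24 against 12 months, and the medians did not move. Over all genes the block changed the count of calls from 22 to 11 for 24 against 12 months and from 60 to 57 for 12 months against young. Over all genes, 24 against 12 months also gave 10 with library total scaling, 11 with only the 2 groups, 35 with a filter of 50 and 0 with no filter, and 12 months against young gave 38 with voom and 39 with only the 2 groups.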

Other observations

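Values outside the comparisons concern the copies of ribosomal protein genes that the table lists under their own names. It held 7 symbols of ribosomal protein pseudogenes, 4 of which were abundant enough to be tested, and together they had 41242 reads against 6216391 on the members (0.663%). Rps15a-ps6 had 16499 of these reads and Rpl14-ps1 23769. Rpl37rt, a copy of Rpl37, had 23913 reads, and Rps27rt, a copy of Rps27, had 0, as had Rpl26 and Rpl10l.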
